A study of Mus musculus with 20 samples.

Results

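The comparison described here is Scriptaid against vehicle in mouse hindlimb muscle that already carried dominant-negative HDAC4 and HDAC5 (dnHDAC4/5). Its samples were chosen by their labels alone and number 10 of the 20 in the series. Scriptaid is a hydroxamate inhibitor of histone deacetylases. All animals were male C57Bl6 mice, 8 weeks old when the vectors were injected, and the tissue was the extensor digitorum longus (EDL), a fast muscle of the lower leg.

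Both groups had the same vectors in the right leg: recombinant adeno-associated virus of serotype 6 (rAAV6) encoding HDAC4 with the substitution D832N and HDAC5 with D861N, at 2.5e+10 vector genomes of each in 30 µL. The substitutions lie in the deacetylase part of each protein. After 4 weeks 5 animals received Scriptaid into the peritoneal cavity (right legs abbreviated HS) and 5 received its vehicle, 5% DMSO in phosphate-buffered saline (HV). The left legs of the same animals carried an empty rAAV6 vector and form the groups ES (Scriptaid) and EV (vehicle). They serve below as a reference. Their arrays also enter the choice of probes and the estimate of spread shared by the 4 groups, so they affect each SE and p value. The labels do not give the dose of Scriptaid, the time from injection to dissection or the promoter of the vectors. The titles of the ES samples name vehicle, but their descriptions and treatment entries name Scriptaid, which was followed. The native Hdac4 probe read 1.02 to 1.45 on 4 HV arrays and 0.50 to 1.94 on the 5 HS arrays, and Hdac5 read 3.07 to 3.34 on 5 HV and 3.30 to 3.70 on 3 HS arrays. These probes do not check the vectors, whose sequences are not given. Every level here is a log2 intensity relative to the 75th percentile of the array, so levels of different probes cannot be set against each other.

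Class IIa histone deacetylases, which include HDAC4 and HDAC5, sit on MEF2 transcription factors in the nucleus of a muscle fibre and keep their targets low with the help of corepressor complexes that hold the catalytically active HDAC3. Kinases switched on by contraction phosphorylate them, and they leave the nucleus. Hydroxamate inhibitors act on the zinc-dependent enzymes of class I and IIb. A leg with dnHDAC4/5 and Scriptaid therefore carries the dominant-negative vectors and meets the drug, and the comparison asks what the drug adds to the vectors. Whether the vectors blocked class IIa deacetylases in these muscles was not tested here.

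The arrays differed in quality between the groups. The 75th percentile of the processed intensity was 338.5 to 500.0 on HV arrays and 248.4 to 542.7 on HS arrays. A spot counts as low here if it lay over 3 log2 units under the median of that spot elsewhere. Near the edges 2.25% to 3.60% of spots were low on HS arrays and at most 0.173% on HV arrays, and edge spots were therefore left out. Inside the array the share was 0.0576% to 0.257% on HS and 0.0262% to 0.0498% on HV arrays, so some low spots remain among the values below. Each slide carried 1 array of each group, always in the same place, so place on the slide and group cannot be told apart. The array HS 2, replicate 2 of the HS group, stood apart: markers of neutrophils (3 genes) averaged 4.45 on it and -3.34 to -2.71 on the other 4 HS arrays, and markers of red blood cells (5 genes) averaged 2.82 against -1.14 to -0.01. Among the reference arrays EV 1 stood apart likewise. Neutrophil markers averaged 3.26 on it and -4.58 to -3.47 on the other EV arrays, and red blood cell markers 2.13 against -1.56 to -0.99. List counts and medians that HS 2 moves by over 1.5 times are given with and without HS 2. Left-leg list values include EV 1.

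limma called 1 of 14655 genes (0.00682%) at an adjusted p under 0.05, and that gene fell: Slc16a12, which encodes MCT12, a membrane carrier of creatine in the monocarboxylate transporter family. Its level was -2.96, -2.84, -2.99, -3.22 and -2.94 on HV arrays 1 to 5 and -3.72, -3.80, -3.83, -3.81 and -4.0 on HS arrays 1 to 5. The groups did not overlap, so the HS array had to be the lower on every slide. The differences within slides 1 to 5 were -0.76, -0.96, -0.84, -0.59 and -1.06. The difference was -0.84 ± 0.13 (SE; adjusted p = 0.0416). In the empty-vector legs the same contrast gave -0.03 ± 0.13, and the difference between the legs, -0.81 ± 0.18, did not pass adjustment over all genes (adjusted p = 0.9998). Leaving out 1 of the 20 arrays in turn gave adjusted p values between 0.00544 and 0.125, and 12 of these 20 fits lost the call. The call was also lost with the animal as a random block, which allows for the pair of legs of each animal (adjusted p = 0.0643), and in a fit of the 10 arrays alone (0.157). With normexp background the difference was -0.39 (adjusted p = 0.9998).

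Before adjustment, 764 genes were higher in HS at a p under 0.05 (5.21%) and 360 were lower (2.46%). Without HS 2 these were 1377 (9.40%) and 564 (3.85%), so counts within a list have to be read against a higher background there. The median difference of all genes was 0.05. Of the 14655 genes, 8549 had a positive difference and 6106 a negative one, and counts of positive genes within a list have to be read against this. The split depends on the scaling, with 1353 higher and 278 lower after quantile normalization and 566 higher and 474 lower when the percentile was taken over interior spots. The percentile of the main fit includes the edge spots, which were low more often on HS than on HV arrays. With the percentile over interior spots the median difference of all genes was 0.01. Of 14363 genes measured on at least 4 arrays of each group, 116 (0.808%) had every HS value above every HV value and 34 (0.237%) the reverse. In the empty-vector legs 0 genes passed (0%), with 334 higher (2.28%) and 262 lower (1.79%) at an unadjusted p under 0.05 and a median of 0.02.

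The slide matters to the count. With the slide as a fixed replicate block limma called 18 genes in the dnHDAC4/5 legs, 14 higher and 4 lower, and with the slide as a random block 30, of which 16 were among the 18. Leaving out HS 2 gave 31 calls, of which 11 were among the 18. The 18 include Slc16a12 (adjusted p = 0.0351), Nr1i3 (0.00484), Fkbp5 (0.0327), Alkal2 (0.0351), Arrdc2 (0.0415), Klf15 (0.0351), Klf4 (0.0351), Pim3 (0.0351), Ivd (0.0351), Cacnb2 (0.0351) and Heatr5a (0.0351). Apart from Slc16a12, none of them passed in the fit without the block, and their values are given below as such.

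**Figure D1:**
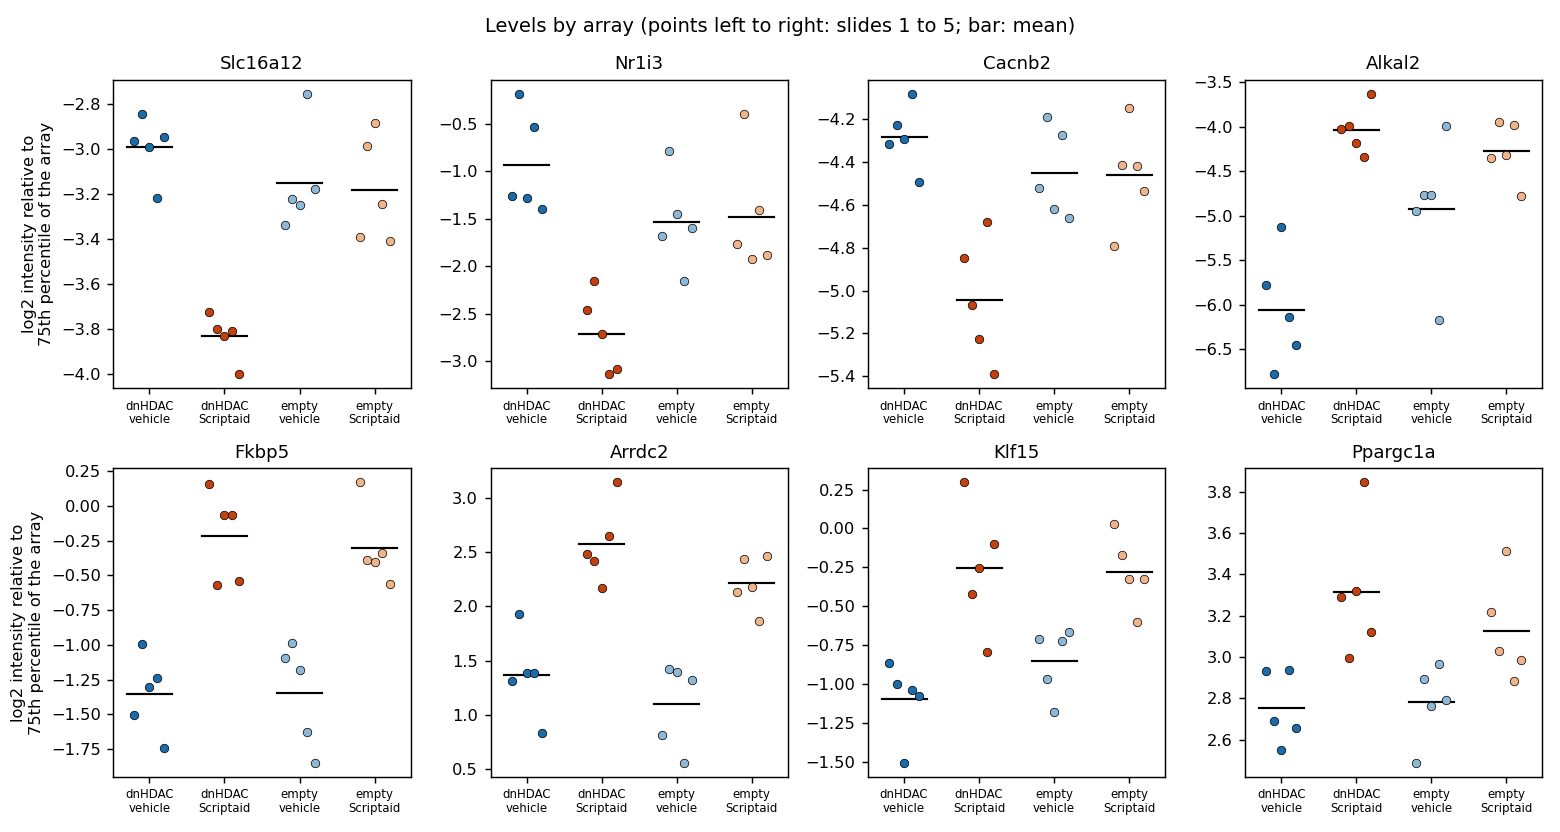
Level of 8 genes on each array, as log2 intensity relative to the 75th percentile of the array; each point is 1 array, in the order of slides 1 to 5, and the bar is the group mean. Slc16a12, Nr1i3 and Cacnb2 are lower on every HS array than on any HV array and show no such shift in the empty-vector legs, whereas Fkbp5, Arrdc2 and Klf15 are higher with Scriptaid in both legs.

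Nr1i3, the constitutive androstane receptor, a nuclear receptor best known for drug metabolism in liver, had the next lower value. It read -1.26, -0.18, -1.28, -0.54 and -1.40 on HV arrays and -2.46, -2.16, -2.72, -3.14 and -3.08 on HS arrays. The groups did not overlap, and the difference of -1.78 ± 0.32 did not pass (adjusted p = 0.0628; 0.0246 without HS 2). The empty-vector legs gave 0.06 ± 0.32. Cacnb2, an auxiliary subunit of voltage-gated calcium channels, read -4.50 to -4.08 on HV and -5.39 to -4.68 on HS arrays, a difference of -0.76 ± 0.15 (adjusted p = 0.112). It was well above background on 4 HV arrays and 1 HS array, so its value lies near the floor of the measurement.

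Among the higher genes, Alkal2, a ligand of the receptor tyrosine kinases ALK and LTK, had the smallest p. It read -5.78, -6.78, -5.13, -6.14 and -6.45 on HV arrays, none of them well above background, and -4.02, -3.98, -4.19, -4.33 and -3.63 on HS arrays, 4 of them above. The level in HS was at least 2.35-fold higher, where the bound sets each dim HV value at the faintest signal well above background on its array, and the fit gave an adjusted p of 0.0535. In the empty-vector legs it was well above background on 1 EV and 3 ES arrays, and values ran from -6.17 to -3.99 in EV and from -4.77 to -3.95 in ES. With normexp background the difference in the dnHDAC4/5 legs was 0.37. limma called the gene when low spots were left out (adjusted p = 0.0480).

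Fkbp5 and Arrdc2 came next, with Klf15 further down, and all 3 were higher in both legs of the Scriptaid animals. Fkbp5 encodes a co-chaperone of the glucocorticoid receptor and is a textbook target of that receptor. It read -1.50, -0.997, -1.30, -1.24 and -1.74 on HV arrays and 0.16, -0.57, -0.07, -0.06 and -0.54 on HS arrays, without overlap. The difference was 1.14 ± 0.20 (adjusted p = 0.0628), 2 further probes gave 0.95 and 0.96, and the left legs gave 1.04 ± 0.20. Arrdc2, an arrestin-domain protein, read 1.31, 1.93, 1.38, 1.38 and 0.84 on HV arrays and 2.48, 2.42, 2.17, 2.65 and 3.14 on HS arrays. Its difference was 1.203 ± 0.22 (adjusted p = 0.0628) against 1.11 ± 0.22 in the left legs. Klf15, a Krüppel-like factor that activates amino acid breakdown and lipid use in muscle, read -1.51 to -0.86 on HV and -0.79 to 0.30 on HS arrays, a difference of 0.84 ± 0.18 (adjusted p = 0.169) against 0.57 ± 0.18 on the left.

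The 250 bases before the annotated start of these 3 genes and of Slc16a12 are shown because Slc16a12 is the gene that passed, while the others had higher values in both legs. They are from RefSeq (GRCm38.p6), in the direction of the gene. Capitals mark AGAACA or its reverse complement TGTTCT, the core hexamer bound by the glucocorticoid receptor, and GGGCGG or CCGCCC, the GC box bound by Sp and Krüppel-like factors. Slc16a12 (chr19, minus strand, chr19:34747329-34747578) has 1 AGAACA and 0 GC boxes. Fkbp5 (minus strand, chr17:28486150-28486399) has 3 GC boxes, Arrdc2 (minus strand, chr8:70839721-70839970) 4 and Klf15 (plus strand, chr6:90462326-90462575) 1, and these 3 have 0 copies of the hexamer.
Slc16a12: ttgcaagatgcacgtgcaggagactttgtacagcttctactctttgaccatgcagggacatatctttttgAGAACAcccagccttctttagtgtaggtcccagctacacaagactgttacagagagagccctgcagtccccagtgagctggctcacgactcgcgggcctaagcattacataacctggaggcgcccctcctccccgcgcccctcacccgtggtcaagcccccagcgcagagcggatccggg
Fkbp5: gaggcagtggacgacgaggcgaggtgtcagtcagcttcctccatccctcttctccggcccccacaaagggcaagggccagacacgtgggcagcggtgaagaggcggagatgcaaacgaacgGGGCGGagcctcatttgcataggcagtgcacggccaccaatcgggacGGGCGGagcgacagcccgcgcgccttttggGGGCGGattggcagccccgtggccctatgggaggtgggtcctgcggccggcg
Arrdc2: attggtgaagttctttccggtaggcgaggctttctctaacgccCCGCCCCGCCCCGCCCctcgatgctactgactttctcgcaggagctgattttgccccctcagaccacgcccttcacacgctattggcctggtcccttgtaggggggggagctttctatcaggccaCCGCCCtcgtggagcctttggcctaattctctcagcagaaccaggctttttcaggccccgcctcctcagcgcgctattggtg
Klf15: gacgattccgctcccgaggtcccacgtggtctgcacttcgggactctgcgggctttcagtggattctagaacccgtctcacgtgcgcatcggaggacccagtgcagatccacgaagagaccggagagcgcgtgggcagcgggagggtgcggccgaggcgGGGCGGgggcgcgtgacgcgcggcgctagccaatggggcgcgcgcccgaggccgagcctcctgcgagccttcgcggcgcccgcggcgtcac

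Over 32851 such windows of 27025 gene names, 16.1% held the hexamer and 32.7% the GC box. Of the 20 tested genes in the glucocorticoid list below, 18 had a window. The hexamer was in 2 of their 21 windows (Trim63 and Tsc22d3) and the GC box in 15. A matching hexamer is not a binding site, and sites outside these 250 bases were not looked at.

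The list of known glucocorticoid receptor targets was positive throughout. All 20 tested members had a positive difference in the dnHDAC4/5 legs, with a median of 0.57 against 0.05 over all genes. None passed the adjusted test. At an unadjusted p under 0.05, 11 were higher (5.21% of all genes were) and 0 lower, and the count was 9 without HS 2 (18 of 20 positive) and 8 with the percentile over interior spots. The metallothioneins Mt1 (1.14 ± 0.33) and Mt2 (1.68 ± 0.66), which bind zinc, the transcription factor Foxo1 (0.59 ± 0.17) and the muscle ubiquitin ligase Fbxo32 (0.55 ± 0.18) were among the 11, as were the growth inhibitor Ddit4 (0.50 ± 0.23), the EGF receptor inhibitor Errfi1 (0.53 ± 0.20), the glutamine synthetase Glul (0.70 ± 0.32) and Nfkbia (0.39 ± 0.18), which holds NF-κB in the cytoplasm. Tsc22d3, the glucocorticoid-induced leucine zipper, gave 0.07 ± 0.15, Foxo3 0.06 ± 0.83 and the liver enzyme Tat 0.08 ± 0.29. In the left legs of the same animals the list had a median of 0.53, with 18 of 20 positive. The left and right legs come from the same animals, so the left legs are not a separate set of mice.

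**Figure D2:**
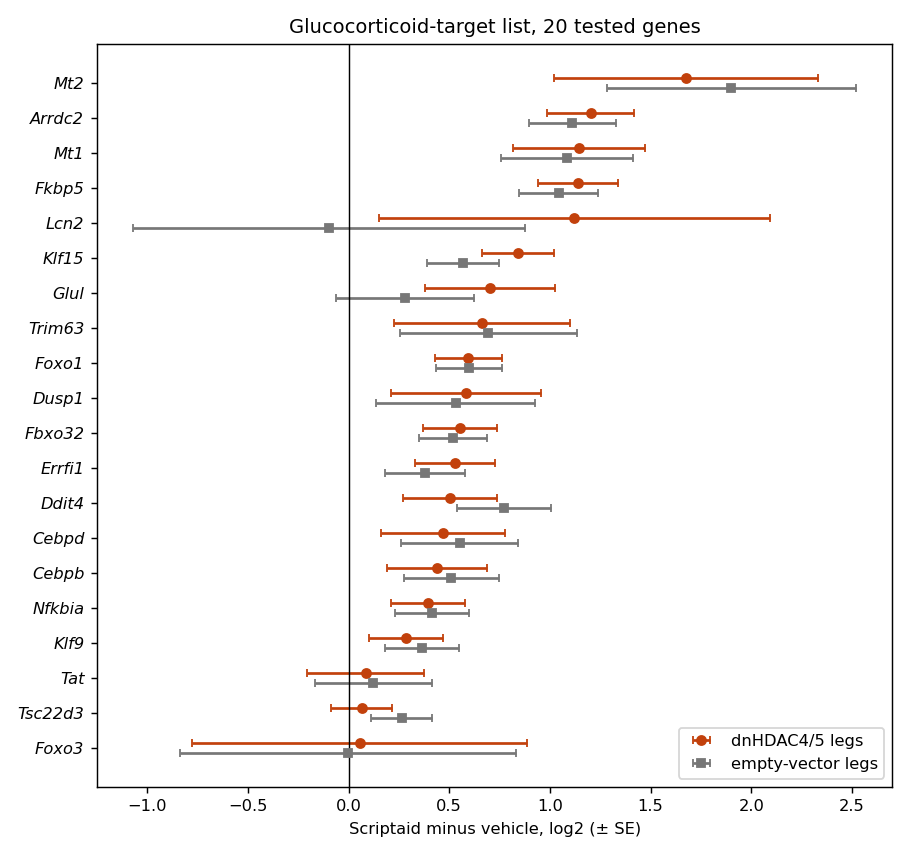
Difference between Scriptaid and vehicle (log2, points; bars, SE) for the 20 tested genes of the glucocorticoid-target list, in dnHDAC4/5 legs (circles) and in empty-vector legs (squares). All 20 circles lie above 0, from 0.06 to 1.68.

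Krüppel-like transcription factors gave a similar picture, and Klf15 is in both lists. All 12 tested members were positive, 11 without HS 2 and 10 with the percentile over interior spots. At an unadjusted p under 0.05, 5 were higher (5.21% of all genes were), and 0 passed adjustment. The median was 0.40 in dnHDAC4/5 and 0.38 in empty-vector legs. Klf4, which regulates vascular and epithelial genes, differed by 0.78 ± 0.18 without overlap of the groups, Klf2 by 0.68 ± 0.30, Klf3 by 0.50 ± 0.23 and Klf12 by 0.51 ± 0.21. Klf7 (0.03 ± 0.14) and Klf16 (0.03 ± 0.14) were near 0.

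Regulators of the exercise response had 20 of 21 positive differences and a median of 0.25, against 0.20 on the left. At an unadjusted p under 0.05, 4 were higher (5.21% of all genes were) and 9 without HS 2 (9.40% of all genes). None passed adjustment. Ppargc1a encodes PGC-1α, the coactivator of mitochondrial biogenesis. It read 2.93, 2.69, 2.55, 2.94 and 2.66 on HV arrays and 3.29, 3.00, 3.32, 3.85 and 3.12 on HS arrays, so the groups did not overlap (0.56 ± 0.16; adjusted p = 0.337; 0.50 on a second probe). Ppara, the lipid-sensing nuclear receptor, differed by 0.83 ± 0.23 without overlap, Nr4a1, an orphan receptor induced by contraction, by 0.58 ± 0.21, and Lpl, which frees fatty acids from lipoproteins, by 0.44 ± 0.18. Slc2a4, the insulin-responsive glucose transporter GLUT4 and a known MEF2 target, gave 0.05 ± 0.15, and Ppargc1b gave 0.00 ± 0.22.

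No gene of fuel use passed in the fit of all 20 arrays without the block. Fatty acid uptake and oxidation had 18 of 22 positive values, a median of 0.20 and 0 genes at an unadjusted p under 0.05. Without HS 2, 6 of the 22 were higher at that p, and 6 after quantile normalization. Of all genes, 5.21% were higher at that p, 9.40% without HS 2 and 9.23% after quantile normalization. Its largest differences were the carnitine carrier Slc25a20 (0.67 ± 0.34) and the fatty acid transporter Slc27a1 (0.50 ± 0.51). Among lipid droplet genes (median 0.29; 1 of 15 higher at that p, 3 without HS 2), the perilipin Plin4 read 5.47 to 5.78 on 5 HV and 6.08 to 6.64 on 4 HS arrays, without overlap (0.66 ± 0.13; adjusted p = 0.164), against 0.68 ± 0.13 in the left legs. limma called it without HS 2 (adjusted p = 0.0365), after quantile normalization (0.0365) and with the slide as a random block (0.0417). Breakdown of branched-chain amino acids had a median of 0.21 with 2 of 17 genes higher at that p, Ivd, the isovaleryl-CoA dehydrogenase (0.52 ± 0.14), and Mccc1 (0.29 ± 0.14); without HS 2 it had 6. Ppp1r3c, which targets a phosphatase to glycogen, was at 3.43 to 4.81 in HV and 4.57 to 5.43 in HS (0.91 ± 0.27; left 0.93 ± 0.27).

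Lower values among the metabolic genes were fewer. Pfkfb3, which makes the activator of phosphofructokinase, read 3.51 to 5.78 on HV and 2.21 to 3.60 on 4 HS arrays, so the groups overlapped (-1.42 ± 0.42; adjusted p = 0.366). Its other 2 probes gave -1.77 and -1.22. Gys1, the muscle glycogen synthase, read 3.68 to 4.17 on 4 HV arrays, but 4.39, 3.06, 4.48, -1.60 and -1.11 on HS arrays 1 to 5. Its difference of -2.11 ± 1.00 rests on HS 4 and HS 5, and was 0.03 when spots over log2 3 below the other arrays were left out. The 24 tested subunits of oxidative phosphorylation had a median of -0.04, with 0 at an unadjusted p under 0.05, and without HS 2 a median of -0.01 with 1. The 20 genes of the TCA cycle had a median of 0.06 with 1 higher at that p (5.21% of all genes were). Without HS 2 the median was 0.13 with 4 higher (9.40% of all genes).

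**Figure D3:**
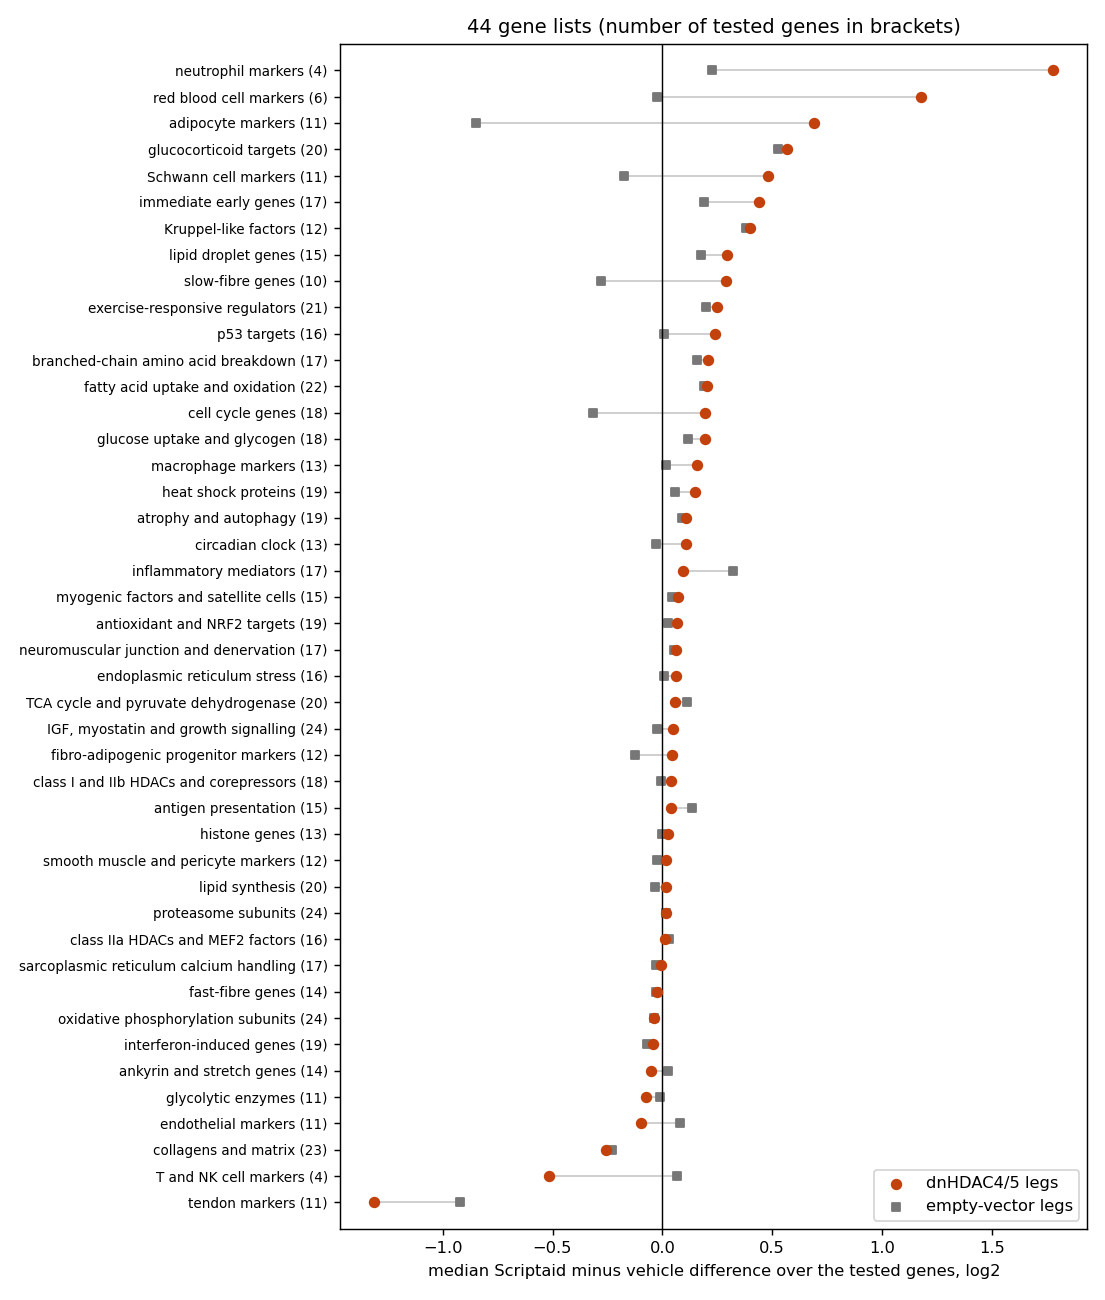
Median difference between Scriptaid and vehicle (log2) over the tested genes of each of 44 lists, in dnHDAC4/5 legs (circles) and empty-vector legs (squares); the number of tested genes is in brackets. Neutrophil, red blood cell, adipocyte and glucocorticoid lists lie highest in the dnHDAC4/5 legs and tendon markers lowest, at -1.31. Without HS 2 the adipocyte median is 0.28, below the glucocorticoid median of 0.57.

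Immediate early genes, the first transcripts made after a stimulus, had 17 of 17 positive values and a median of 0.44 against 0.19 on the left. At an unadjusted p under 0.05, 4 were higher (5.21% of all genes were). Fos differed by 1.64 ± 0.67, Jund by 0.48 ± 0.17 and the antiproliferative gene Btg2 by 0.83 ± 0.27. Of 16 targets of p53, 5 were higher and 1 lower at that p (5.21% and 2.46% of all genes), with a median of 0.24 against 0.01 on the left. Groups did not overlap for Bbc3 (0.51 ± 0.14) and Fas (0.48 ± 0.14), which promote cell death, or for the stress sensor Sesn1 (0.81 ± 0.23). Zmat3 was the lower gene (-0.55 ± 0.24), with a value of -0.70 on HS 5 against 0.41 to 1.09 on the other HS arrays. Bcl2l1, which encodes the survival protein Bcl-xL, read -0.48 to -0.05 in HV and 0.22 to 0.83 in HS (0.76 ± 0.17; adjusted p = 0.169), while its other 2 probes gave -0.15 and 0.87.

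No stress or protein turnover gene passed in that fit. Of 19 heat shock genes 1 was higher at an unadjusted p under 0.05, the HSP70 partner Dnajb1 (0.87 ± 0.19; adjusted p = 0.169, and 0.0224 without HS 2; 0.23 on a second probe). Edem1, which feeds misfolded proteins to degradation, differed by 0.57 ± 0.14 without overlap, but by 0.02 on a second probe, and the median of its list was 0.06. Without HS 2 the heat shock list had 4 higher. The 24 proteasome subunits had a median of 0.02 with 2 higher at that p, and without HS 2 a median of 0.12 with 5 higher and 21 positive. Of all genes, 5.21% were higher at that p, and 9.40% without HS 2. The atrophy and autophagy list had 3 of 19 higher, with and without HS 2: Foxo1, Fbxo32 and the mitochondrial ubiquitin ligase Mul1 (0.42 ± 0.18). The ligase Trim63 (0.66 ± 0.44) did not reach that p. Clock genes had a median of 0.11, led by the repressor Nfil3 (0.66 ± 0.26).

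Transcripts of the deacetylases themselves did not pass. Of 18 class I and IIb deacetylases and corepressors 0 reached an unadjusted p under 0.05 (1 without HS 2), with values from -0.21 (Hdac3) to 0.25 (Hdac8). In the class IIa and MEF2 list (16 genes, median 0.01, 0.10 without HS 2) Hdac4 gave 0.01 ± 0.24, Hdac5 0.28 ± 0.17, Mef2c -0.15 ± 0.14 and Mef2d 0.00 ± 0.19. Kinases that phosphorylate class IIa deacetylases were its 2 higher members: Prkd1, protein kinase D1, read -2.47 to -2.04 in HV and -1.93 to -1.48 in HS (0.55 ± 0.13; adjusted p = 0.233; left 0.41 ± 0.13), and Camk2d gave 0.41 ± 0.14. Of 13 histone genes, the variant H2az2 (0.45 ± 0.15) and H2aj (0.40 ± 0.19) were higher and Macroh2a1 (-0.31 ± 0.14) was lower at that p. Without HS 2 there were 1 higher and 1 lower. Of all genes, 5.21% were higher and 2.46% lower at that p, and without HS 2 these were 9.40% and 3.85%.

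The remaining genes of smallest p whose groups did not overlap were varied in kind. Pim3, a survival kinase, read 1.26 to 1.65 in HV and 1.84 to 2.43 in HS (0.73 ± 0.15; left 0.53 ± 0.15). Trdmt1, a tRNA cytosine methyltransferase (0.53 ± 0.11), Ppp2r1b, a scaffold of protein phosphatase 2A (0.61 ± 0.13), and Degs1, which makes ceramide (0.57 ± 0.12), gave -0.06, -0.03 and 0.00 in the left legs, but a second Ppp2r1b probe gave 0.14. Heatr5a differed by 0.58 ± 0.11 on its brightest probe but by -0.22 to 0.10 on the other 3, and Zfp280d by 0.66 ± 0.14, with -0.24 and 0.23 on its others. None of these passed.

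Lower genes without overlap included the G-protein regulator Rgs11, at -4.02 to -3.45 in HV and -5.52 to -4.29 in HS, where no HS array was above background (at least 1.90-fold lower; adjusted p = 0.148). Syt9, a synaptotagmin, was likewise above background on no HS array (at least 1.99-fold lower; adjusted p = 0.303). The homeobox genes Zfhx4 (-0.92 ± 0.21) and Msx1 (-0.51 ± 0.13), the RNA-binding protein Rbms3 (-0.62 ± 0.16), the kinase Hunk (-1.03 ± 0.26), Zfp369 (-0.81 ± 0.23), Prrt1 (-0.72 ± 0.22) and the GTPase Rab29 (-0.94 ± 0.28) had adjusted p values from 0.195 to 0.363. Second probes gave 0.11 for Rbms3, 0.04 for Zfp369 and -0.25 for Msx1. Prrt1 was above background on 1 HS array and Zfp369 on 3, so these differences lie near the floor. Rab29 read 0.94 to 1.11 in HV and -1.47 on HS 3, with at most 0.88 on the other HS arrays.

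**Figure D4:**
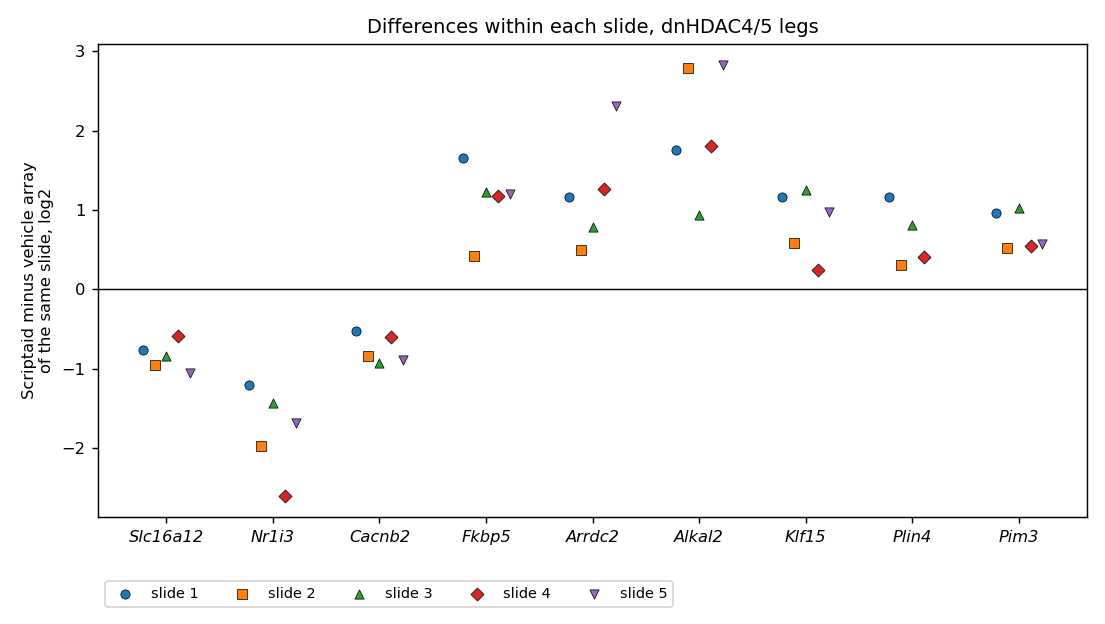
Difference between the HS and the HV array of the same slide (log2) for 9 genes, with a symbol for each of the 5 slides. Slc16a12, Nr1i3 and Cacnb2 are below 0 on all 5 slides. Fkbp5, Arrdc2, Alkal2, Klf15 and Pim3 are above 0 on all 5, and Plin4 on the 4 measured. The HV and HS groups of these 9 genes do not overlap, so the sign on each slide was fixed in advance.

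The labelled tissue was checked against fibre-type genes. Myh4 (myosin IIb), Myh2 (IIa) and Actn3 were saturated on all 10 arrays, so their levels are bounds and no fold is given. The fast-fibre list had 0 of 14 genes at an unadjusted p under 0.05. Saturated probes can hide a change, so this count does not show that fast-fibre genes kept their level. Myh7, the slow myosin, ran from -0.34 to 2.73 on HV and from 0.34 to 4.78 on HS arrays, the highest on HS 2. Sln, the sarcolipin that inhibits the calcium pump, was 0.96 to 1.36 in HS; in HV it was 0.53, -3.77, 0.51, -1.22 and 0.89, so the absence of overlap (1.72 ± 0.62; adjusted p = 0.467) comes with 2 low HV arrays, and the difference was 0.94 with low spots left out.

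Several lists of markers of other tissues had medians away from 0. The lists were not tested as a whole, and no marker gene passed adjustment in the fit of all 20 arrays without the block. Mean levels of the tendon, collagen, red blood cell, neutrophil, adipocyte and Schwann cell lists overlapped between HV and HS. Those of the 4 T and NK cell genes ran from -3.68 to -2.68 in HV and from -4.18 to -3.78 in HS. All 11 tendon genes had negative differences, with a median of -1.31, or -1.98 without HS 2. Of them 3 were lower at an unadjusted p under 0.05 (2.46% of all genes were), and 8 without HS 2 (3.85% of all genes). In the left legs the tendon median was -0.92, with 0 of 11 positive and 3 lower at that p (1.79% of all genes). Tnmd, a tendon membrane protein, read 1.46, 1.70, 0.96, -0.01 and 1.68 on HV arrays and -0.89, 1.61, 0.42, -1.30 and -1.51 on HS arrays (-1.49 ± 0.53), and the left legs gave -1.11 ± 0.53. The mean level of 9 tendon genes was -0.50 to 1.18 in HV and -1.60 to 1.33 in HS, with HS 2 the highest. Collagen and matrix genes had negative values in 22 of 23 cases (median -0.26; left -0.23), with Col1a2 (-0.69 ± 0.27) and Col12a1 (-1.93 ± 0.79) at that p, and 5 without HS 2. Their part in the other results was not tested, and fewer cells of a type cannot be told from less RNA per cell in whole muscle.

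Red blood cell genes were positive in 6 of 6 cases, with a median of 1.18 against -0.02 on the left. The left value includes EV 1, where 5 of these genes averaged 2.13, against -1.56 to -0.99 on the other EV arrays. The right and left values therefore each hold 1 array that stood apart, HS 2 and EV 1. Hba-a2, an α-globin, read 3.60 to 5.25 in HV and 4.60 to 7.28 in HS, the highest on HS 2. The 3 genes at an unadjusted p under 0.05 (5.21% of all genes were higher) became 0 without HS 2, and the median 0.64. Neutrophil genes had a median of 1.78 over 4 tested members, S100a9 (2.99 ± 1.51) among them, with 0 at that p; without HS 2 the median was 1.01, with 3 of 4 positive. Adipocyte (median 0.69) and Schwann cell (0.48) markers had 11 of 11 and 10 of 11 positive values and 0 at that p, and both medians were 0.28 without HS 2. In the left legs these medians were -0.85 and -0.17, with 2 of 11 and 3 of 11 positive. EV 1 had the highest mean level of both lists among the EV arrays. Macrophage (0.16, or 0.05 without HS 2), endothelial (-0.10, or -0.02) and smooth muscle (0.02, or 0.14) medians were smaller. The 4 tested T and NK cell genes, of 15 listed, were negative, with Cd247 at -1.42 ± 0.42. The median of these 4 was -0.52, and -0.15 with normexp background.

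**Figure D5:**
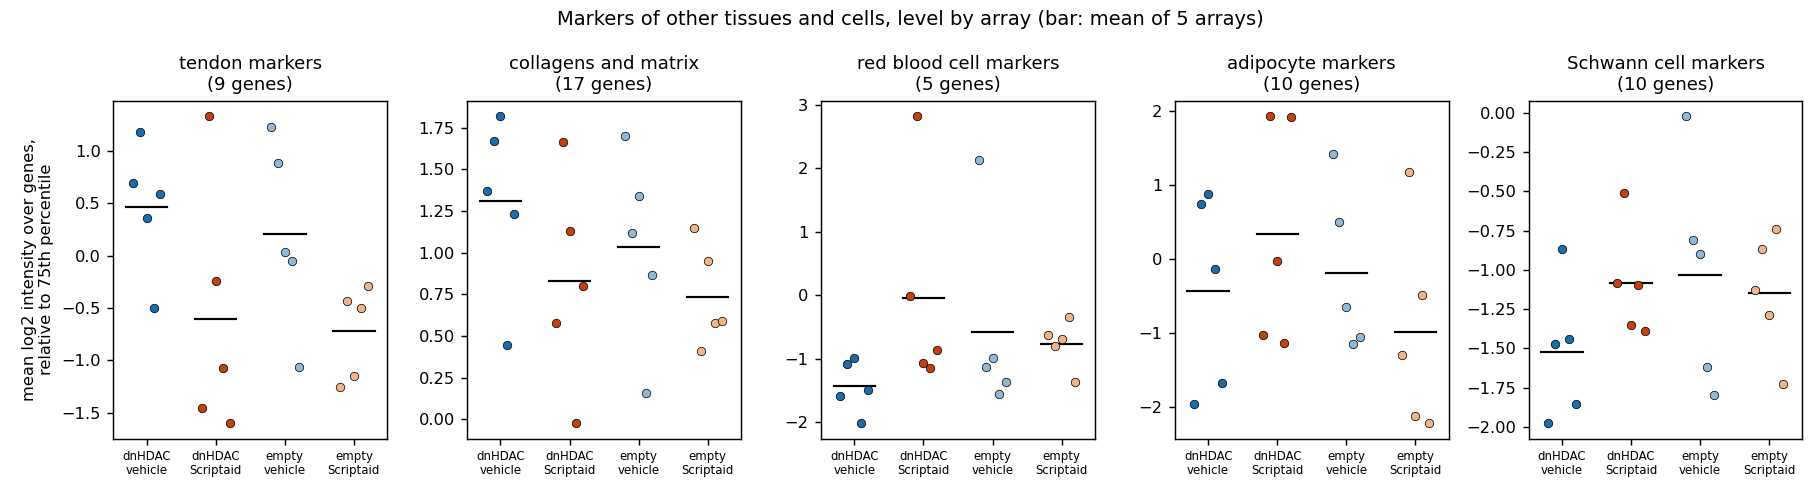
Mean level (log2 intensity relative to the 75th percentile) of marker genes of 5 other tissues or cell types on each array; points are arrays in the order of slides 1 to 5 and bars are means of 5 arrays. HS 2 reads 2.82 for red blood cell and 1.33 for tendon markers, above the other HS arrays. EV 1 reads 2.13 for red blood cell markers, above the other EV arrays.

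Whether the drug acted differently with and without dnHDAC4/5 was tested as the difference between the legs. limma called 0 of 14655 genes (0%), with 316 at an unadjusted p under 0.05 (2.16%). Because both legs of an animal enter this contrast, it was also fitted with the animal as a random block, which gave 0 calls, 786 genes at that p (5.36%) and a smallest adjusted p of 0.208. Without HS 2 limma called 1 gene, Pif1 (-2.33; adjusted p = 0.0274). Myh3, the embryonic myosin, led: it read -2.79 to -1.58 in HV and -1.85 to -0.53 in HS (1.09 ± 0.26), but -1.25 to -0.42 in EV and -1.88 to -1.19 in ES (-0.66 ± 0.26). The difference of 1.75 ± 0.37 did not pass adjustment (0.9998). Camsap2, which caps microtubule minus ends (0.66 ± 0.18), and Zmpste24, the protease that matures lamin A (0.72 ± 0.20), also had higher differences. Nr1i3 (-1.84 ± 0.45), Cacnb2 (-0.75 ± 0.21) and the helicase Pif1 (-1.83 ± 0.56) had lower ones. A second Camsap2 probe gave -0.07 for Scriptaid minus vehicle in the dnHDAC4/5 legs. Pif1 read 0.61 to 1.36 in HV and -0.65, 1.40, -1.67, -0.65 and -1.41 on HS arrays 1 to 5; without HS 2 its Scriptaid difference was -2.11 (adjusted p = 0.00138). For Fkbp5 (0.10 ± 0.28), Arrdc2 (0.09 ± 0.31) and Plin4 (-0.02 ± 0.19) the difference between the legs was smaller than its error.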

How the data were processed

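RNA of 20 muscles was measured on 1-colour arrays (Agilent-014868). Per the file headers, Feature Extraction 9.5.1.1 subtracted background and wrote a processed intensity for each spot. The authors also deposited a ratio per probe, found to be that intensity divided by a constant per array (858 to 1720), which was an alternative.

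The log2 processed intensity minus the 75th percentile of non-control spots was used for spots in columns 1 to 77 and rows 11 to 522 (38182 of 43379 non-control spots of 45018). The scanner files' outlier flags, deposited per spot, removed 416 to 506 spots on HV arrays and 657 to 1342 on HS arrays. Probes well above background on at least 5 arrays, with 3 arrays left in every group, were kept (21207). The brightest stood for its gene (14655). Symbols were updated by accession for 1106. In total 688 of 849 list entries were tested. Number of arrays limits the precision; 5 arrays make a group.

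limma 3.58.1 (R 4.3.3) was fitted to the 4 group means, two-sided, with Benjamini-Hochberg adjustment over all genes; every adjusted p is from it. Named genes were those called, the 12 of smallest p in each direction without overlap, list leaders at an unadjusted p under 0.05, the 4 leading differences between legs in each direction, and fixed checks; clone names were passed over. Genes named for the slide block were chosen after their values were seen. The comparison, lists and rules were chosen with earlier results of these data known. The replicate number is the slide, per the file headers; deviations of HV and HS arrays of a slide correlated at 0.11, 0.41, 0.09, 0.37 and 0.05. The fit was tested on simulated data.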

Additional observations from a re-analysis of the deposited data

Results flagged for a closer look

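Among 133 tests of a named gene's level in a group, 6 arrays lay far from the rest of their group, where chance gives about 1 in 20. Of these, 3 were HS 2, 2 were HS 1 and 1 was HV 4. Heatr5a was 1.97 on HS 2, where the next HS array had 2.44. Itga7, a laminin receptor, was -1.26 on HS 2 and at least 0.65 on the others. Myh7 was 4.78 on HS 2 and at most 1.49 on the others. Zfhx4 was -4.77 on HS 1, the next being -3.70. Pfkfb3 was 2.21 on HS 1, the next being 3.49. Prrt1 was -3.84 on HV 4, the highest of its group, the next being -4.16.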

How the results depend on the processing

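limma called 1 gene in the dnHDAC4/5 legs, and 0 in the empty-vector legs and for the difference between them. In the dnHDAC4/5 legs it called 5 after quantile normalization, 3 with the mean of all probes, 6 with array weights, 202 with edge spots included, and 0 with normexp background, no filter on dim probes, only the 10 arrays of the contrast, trend and robust, a random block for the animal, or the authors' deposited ratios. The replicate block gave 18 with the slide fixed and 30 with it random, and changed no other call count (0 left, 0 for the difference). Low spots left out, chosen after seeing the data, gave 2. With edge spots the difference between legs gave 28 calls. The left legs gave 1 with normexp and 1 with no filter. Leaving out 1 array gave 0 to 31 calls in the dnHDAC4/5 legs (31 without HS 2), 0 to 1 in the left legs and 0 to 1 for the difference. Slc16a12 kept its direction in all 37 settings and passed in 19. Many of these settings, such as leaving out an empty-vector array, left its difference at -0.84, so its direction could not change there. Its difference shrank to -0.39 with normexp, and that of Alkal2 to 0.37. Of the values of 67 named genes, 2331 kept direction and call and 31 changed sign while not called. The 2331 include settings that could not change a gene's direction. Of list medians, 37 moved by more than the largest shift from leaving out 1 HV or HS array, and 1591 did not. By this rule those leave-outs could not count as moved, and leaving out an empty-vector array does not change these medians. The 1591 are therefore partly fixed by the rule. The causes were not tested. Probes near background limit the values of Alkal2, Cacnb2, Prrt1, Rgs11 and Syt9.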

Other observations

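A pair of listed genes could be measured only with the outlier-flagged spots kept. Pdk4, the kinase that shuts off pyruvate dehydrogenase, then read 5.40 to 6.02 on HV and 5.45 to 6.69 on HS arrays, a difference of 0.44 ± 0.36 (adjusted p = 0.820; left 0.30). Sgk1, a kinase induced by glucocorticoids, read 6.08 to 7.07 and 6.56 to 7.28, a difference of 0.49 ± 0.21 (adjusted p = 0.604; left 0.42).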
